A study of Mus musculus with 4 samples.

Results

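The 10 genes described here are SLC1A2, SLC1A3, AQP4, GFAP, ALDH1L1, S100B, SOX9, MLC1, ACSL6 and GJA1, a panel of transporters, channels, markers and a transcription factor used to recognise astrocytes. They were chosen by name, in the knowledge of earlier results of these data, and their rows were taken by symbol from spatial transcriptome tables of 4 tissue sections. The tables list symbols in capitals. All 10 were listed in every section, where VitaminA listed 21639 genes, ATRA 20881, BMS753 20987, BMS961+BMS641 20800 and the sections jointly 22218. Mouse symbols (Slc1a2 and so on) are used below.

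The tissue was mouse brain organoid, a ball of neural tissue grown in culture, made from an embryonic stem cell line of genotype CARLIN/Cas9 that is shared by all 4 groups. CARLIN is a lineage barcode that Cas9 can edit, and no wild-type line was compared. Organoids were 3 months old, and from day 9 they had been kept with 2% B27 supplement containing vitamin A (VitaminA), with 1 µM ATRA, with 1 µM BMS753, or with BMS961 and BMS641 together at 0.1 µM. ATRA, all-trans retinoic acid, binds all retinoic acid receptors, BMS753 is a receptor alpha agonist, and BMS961 and BMS641 are agonists of receptors gamma and beta. Several organoids were frozen in 1 mold, so that a section can hold more than 1 of them, and each treatment has 1 section. No replicate exists, so no p-value or standard error is given, and differences between treatments are untested descriptions of 4 sections.

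Astrocytes clear glutamate and potassium released by neurons, move water at their endfeet on blood vessels, and are joined to each other by gap junctions. In the developing brain they arise from radial glia after neurons have formed, under the control of transcription factors such as Sox9 and the nuclear factor I proteins and of cytokine signalling through Stat3. Several members of the panel, Slc1a3 and Sox9 among them, are already used by radial glia, so the panel does not by itself separate astrocytes from their progenitors. A spot of the array lies under several cells, and fewer astrocytes in a section cannot be told apart from less RNA of these genes per astrocyte.

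The sections had 552 spots (VitaminA), 593 (ATRA), 469 (BMS753) and 365 (BMS961+BMS641). The deposited values are a quantile-normalised signal with no counts behind it, which leaves the reads or molecules of a spot unknown. Every spot of a section had the same number of positive genes, between 8604 and 12735 by section. In all but 1 spot of each section, the lowest run of positive values went on directly from the last 0 in the order of genes in the table, as values do when tied genes are split by their order. That run is called the lowest class here, and a gene is called detected in a spot only above it. The distinction matters for S100b, which was positive in 94.9% of ATRA spots but above the lowest class in 0.843% of them. VitaminA had 4659 detected genes in its median spot, BMS961+BMS641 4462, ATRA 3388 and BMS753 3330. Levels are the mean signal over spots, as ppm of the summed signal of all genes in that section. Values of the 4 quadrants of a section, split at the median coordinates, show the spread within a section and are not replicates.

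Because the treatments act on nuclear receptors that bind DNA, the letters upstream of the panel's start sites are given for the members whose levels differed most between sections and that the RefSeq table holds. The table matched 8 of the 10 members, with 10 windows of 250 bases directly upstream of an annotated start, in build GRCm38.p6. Each window was searched on both strands for AGGTCA, the core hexamer of retinoic acid receptor sites. The same was done for TTCNNNGAA, the site of STAT factors, and for TTGGCA, the core of nuclear factor I sites. In the lines that follow, capitals mark a match, and each sequence runs towards the start site on the strand of its gene.
Mlc1, chr15:88978554-88978803, minus strand: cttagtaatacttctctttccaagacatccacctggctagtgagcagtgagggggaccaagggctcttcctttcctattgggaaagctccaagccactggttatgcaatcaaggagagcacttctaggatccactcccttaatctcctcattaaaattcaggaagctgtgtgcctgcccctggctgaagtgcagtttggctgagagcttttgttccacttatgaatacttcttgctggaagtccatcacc
Aldh1l1, chr6:90550543-90550792, plus strand: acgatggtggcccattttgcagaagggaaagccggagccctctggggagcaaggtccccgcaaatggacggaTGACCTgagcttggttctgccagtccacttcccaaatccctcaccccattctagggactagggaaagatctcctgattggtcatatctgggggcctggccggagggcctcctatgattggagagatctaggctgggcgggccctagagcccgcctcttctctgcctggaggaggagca
Slc1a2, chr2:102706188-102706437, plus strand: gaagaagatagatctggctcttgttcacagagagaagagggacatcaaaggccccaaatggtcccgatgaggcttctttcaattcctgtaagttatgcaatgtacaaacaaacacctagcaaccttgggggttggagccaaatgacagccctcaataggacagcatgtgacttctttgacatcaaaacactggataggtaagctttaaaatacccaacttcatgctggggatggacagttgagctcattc
Acsl6, first start, chr11:54303574-54303823, plus strand: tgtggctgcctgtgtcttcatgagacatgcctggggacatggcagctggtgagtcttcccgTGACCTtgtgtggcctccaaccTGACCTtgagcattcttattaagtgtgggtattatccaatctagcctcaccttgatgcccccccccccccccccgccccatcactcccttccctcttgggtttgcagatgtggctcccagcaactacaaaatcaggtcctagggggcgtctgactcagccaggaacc
The receptor hexamer, as TGACCT on the strand shown, was found in the Aldh1l1 window, 178 bases before the start, and in the first of 3 Acsl6 windows, 189 and 167 bases before it. Gfap also held one at 85 bases. Slc1a3 held a STAT site at 96 bases and S100b a nuclear factor I core at 19 bases. The windows of Mlc1, Slc1a2 and Gja1 held none of these letters, and no matches overlapped. Of all 32851 windows of this length in the table, 14.0% held the receptor hexamer, 7.02% the STAT site and 12.3% the nuclear factor I core. A match of so few letters is a description of the window and not of binding.

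The glutamate transporter genes came first among the panel's functional groups. Slc1a2 encodes the transporter that takes up most glutamate in the adult forebrain, and Slc1a3 the related transporter that radial glia and cerebellar astroglia carry. Slc1a2 stood at 97.9 ppm in VitaminA, 37.4 ppm in ATRA, 57.4 ppm in BMS753 and 27.5 ppm in BMS961+BMS641. Its quadrants ran from 91.2 to 106.6 ppm in VitaminA, above every quadrant of the other sections, of which the highest was 60.8 ppm in BMS753. Slc1a2 was detected in 72.8% of VitaminA spots (95% Wilson interval 69.0 to 76.4) and in 44.4%, 42.2% and 44.7% of the spots of ATRA, BMS753 and BMS961+BMS641. These intervals cover the counting of spots alone. Slc1a3 had another order, at 79.8 ppm in BMS753 against 39.0 ppm in VitaminA, 27.2 ppm in BMS961+BMS641 and 26.7 ppm in ATRA. All 4 BMS753 quadrants (69.3 to 88.7 ppm) lay above those of VitaminA (28.2 to 44.3 ppm), whereas the other 3 sections overlapped with their neighbours in the order. By detection, at 46.3%, 38.8%, 39.7% and 26.5% of spots in BMS753, VitaminA, BMS961+BMS641 and ATRA, the quadrants of BMS753 and VitaminA overlapped.

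The membrane and junction genes did not share an order either. Aqp4, the water channel of endfeet, was at 15.4 ppm in VitaminA and at 3.44, 4.48 and 4.96 ppm in ATRA, BMS753 and BMS961+BMS641. Its VitaminA quadrants (11.2 to 21.1 ppm) did not overlap with those of the other sections, and it was detected in 30.1% of VitaminA spots against 7.93%, 10.4% and 15.3%. Mlc1 encodes an endfoot membrane protein whose loss in humans causes a leukoencephalopathy with cysts. It was at 78.3 ppm in ATRA, with quadrants between 69.0 and 93.0 ppm, and at 3.62 ppm in VitaminA, 8.01 ppm in BMS753 and 2.26 ppm in BMS961+BMS641, where no quadrant exceeded 12.7 ppm. Mlc1 was detected in 64.4% of ATRA spots (interval 60.5 to 68.2), in 10.1% in VitaminA, 11.3% in BMS753 and 5.75% in BMS961+BMS641. Within ATRA, 19.2% of spots had it in the third class or higher and the highest class was 12, while in VitaminA and BMS961+BMS641 no spot passed the class of 2. Gja1, the main connexin gene of astrocytes, was at 10.9, 4.34, 10.4 and 8.29 ppm in VitaminA, ATRA, BMS753 and BMS961+BMS641. Neighbouring sections overlapped at every step of that order, and detection lay between 9.44% and 13.2% of spots.

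Among the enzymes and marker proteins, Aldh1l1 and Acsl6 reached 5 ppm in every section and Gfap and S100b in none. Aldh1l1, a folate enzyme used as a pan-astrocyte marker, was at 19.3 ppm in BMS753 and 18.7 ppm in BMS961+BMS641, against 10.5 ppm in VitaminA and 5.79 ppm in ATRA. The quadrants of the BMS sections overlapped each other, those of BMS961+BMS641 lay above VitaminA, and those of VitaminA above ATRA. Its detection was 46.8% of spots in BMS961+BMS641 (interval 41.8 to 52.0), 27.7% in BMS753, 24.6% in VitaminA and 13.8% in ATRA. By detection, the quadrants of VitaminA and ATRA overlapped. Acsl6, an acyl-CoA synthetase that activates long polyunsaturated fatty acids in brain, was at 77.2 ppm in VitaminA, 40.0 ppm in BMS961+BMS641, 39.8 ppm in BMS753 and 20.4 ppm in ATRA. By level, its VitaminA quadrants (73.3 to 78.9 ppm) were above all others and its ATRA quadrants (14.0 to 25.2 ppm) below all others. By detection, at 65.0%, 52.3%, 37.5% and 31.9% of spots in the same order of sections, neighbouring sections overlapped at every step. Gfap, the intermediate filament of mature and reactive astrocytes, was at 3.84, 3.16, 2.33 and 0.45 ppm in VitaminA, ATRA, BMS753 and BMS961+BMS641 and was detected in at most 6.34% of spots. S100b, a calcium-binding protein, was at 2.87, 1.11, 2.35 and 1.84 ppm and was detected in at most 3.99% of spots. Neither Gfap nor S100b reached 5 ppm in any section, their quadrants overlapped between neighbouring sections in the order, and they were compared in no pair of sections by level. With tie class indices in place of values, by which it passed 5 ppm in VitaminA and BMS753, Gfap had a ratio of -1.26 in BMS961+BMS641 against VitaminA and -1.16 in BMS961+BMS641 against BMS753, on detection in 8 of 365 spots of BMS961+BMS641.

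Sox9, the only transcription factor of the panel, drives the switch of neural progenitors to glia. It was at 26.6 ppm in BMS961+BMS641, 13.1 ppm in VitaminA, 12.3 ppm in BMS753 and 7.61 ppm in ATRA. The quadrants of BMS961+BMS641 (17.2 to 33.6 ppm) lay above those of VitaminA (15.6 ppm or less), while BMS753, with quadrants from 3.94 to 19.0 ppm, overlapped with both VitaminA and BMS961+BMS641. Sox9 was detected in 38.4% of BMS961+BMS641 spots (interval 33.5 to 43.4), against 15.6%, 11.7% and 9.61% in VitaminA, BMS753 and ATRA, and here no quadrant of BMS961+BMS641 overlapped with another section. Summed over the panel, the level was 274 ppm in VitaminA, 236 ppm in BMS753, 188 ppm in ATRA and 158 ppm in BMS961+BMS641. Slc1a2, Slc1a3 and Acsl6 carried 78.0% of the sum in VitaminA, but 44.9% in ATRA, where Mlc1 took their place.

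**Figure D1:**
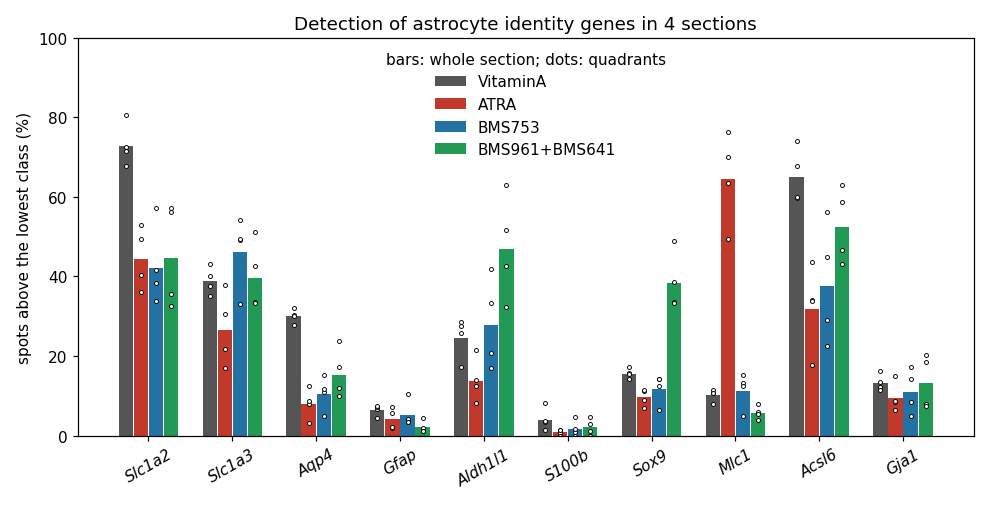
Percent of spots of each section in which each of the 10 genes lay above the lowest class (bars), with the 4 quadrants of a section as open dots. Mlc1 reached 64.4% in ATRA and at most 11.3% elsewhere, Slc1a2 and Aqp4 were highest in VitaminA, and Sox9 and Aldh1l1 were highest in BMS961+BMS641.

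Detection moved with the length of a gene in the genome, so each member was set beside its span group, 1 of 10 equal groups of all genes ordered by span. Slc1a2, with a span of 132546 bases, was in the longest group, whose median gene was detected in 70.8% of VitaminA spots. The 72.8% of Slc1a2 was thus close to genes of its span in VitaminA, and its values in the other sections lay below those medians of 56.7% (ATRA), 56.9% (BMS753) and 70.1% (BMS961+BMS641). Sox9 spans only 5548 bases, and the median gene of its group was detected in 2.74% of BMS961+BMS641 spots and 3.99% of VitaminA spots. Sox9 exceeded that median in every section. Mlc1, at 26810 bases, lay below the median of its group in VitaminA (16.7%), BMS753 (13.4%) and BMS961+BMS641 (16.4%) and above it in ATRA (11.1%). Gfap and S100b lay near the medians of their groups in VitaminA, at 6.34% against 6.16% and at 3.99% against 3.99%, and below them in BMS961+BMS641, at 2.19% against 5.48% and 2.74%. Acsl6 exceeded the median of its group in every section, at 65.0% against 37.1% in VitaminA. Several transcripts known to be abundant in astrocytes were scarce as well: Apoe, a lipid carrier, was detected in at most 1.99% of spots, Vim, a filament of immature glia, in at most 2.90%, and Glul, the glutamine synthetase gene, in at most 10.0%. Low values in these sections were therefore not taken as a low level of transcript in the tissue.

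**Figure D2:**
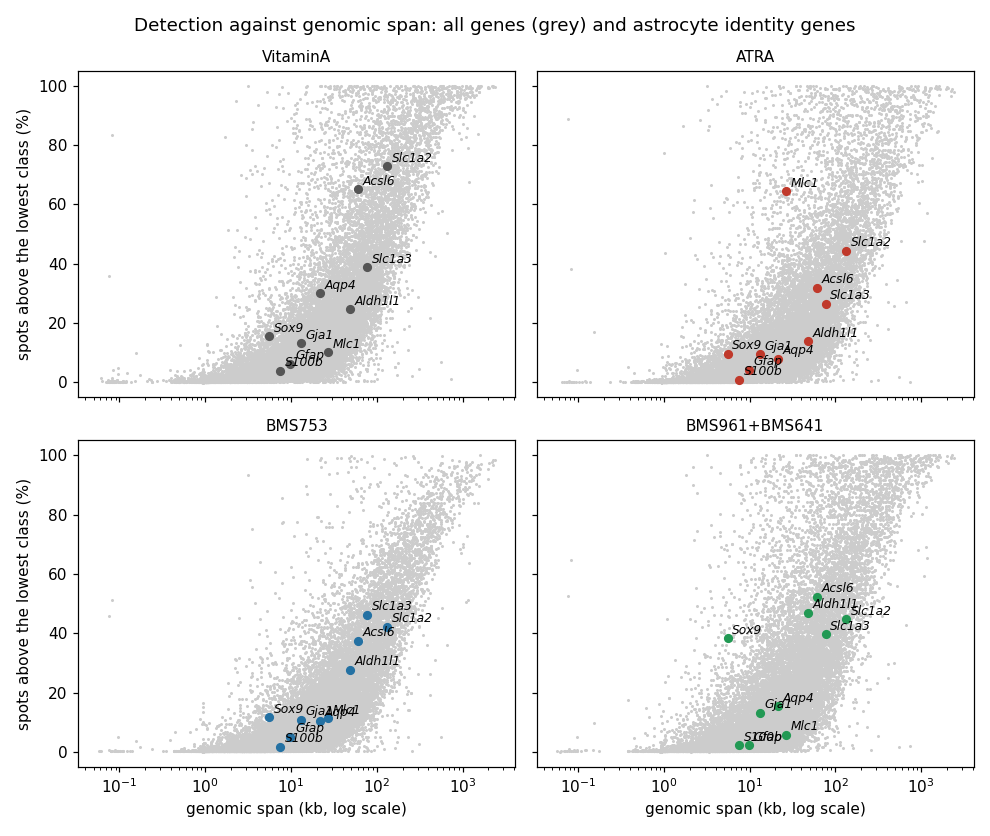
Percent of spots above the lowest class (vertical axis) against genomic span in kilobases (log scale) for all genes with a known span (grey) and the 10 astrocyte identity genes (coloured), 1 panel per section. Sox9 in BMS961+BMS641 (38.4%) and Mlc1 in ATRA (64.4%) stand above most genes of their span, and Slc1a2 lies within the bulk of long genes.

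Differences between sections are given as log2 ratios of ppm plus a pseudocount of 1 ppm, minus the median ratio of all genes that reach 5 ppm in a section of the pair, and a centred ratio of at least 1 or at most -1 is called 2-fold. The median ratios removed were -0.33 for ATRA, 0.31 for BMS753 and -0.25 for BMS961+BMS641, each against VitaminA. Those 3 comparisons share the VitaminA section, so a gene that is high in that section is lower in all of them.

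The ATRA section asks how a ligand of all receptors compares with vitamin A supplement. Mlc1 was far higher and Aqp4, Acsl6 and Slc1a2 were lower. Of the 10 members, 8 were compared, 1 was 2-fold higher, 3 were 2-fold lower and 4 lay between. Over all genes compared, 12.1% were 2-fold higher and 14.6% 2-fold lower. Mlc1 had a centred ratio of 4.43 (3.91 to 5.14 over the 16 pairs of quadrants), a 21.6-fold difference. Aqp4 was at -1.56 (-2.70 to -0.74), Acsl6 at -1.53 (-2.09 to -1.18) and Slc1a2 at -1.03 (-1.49 to -0.73). The call of Slc1a2 ended when the lowest class was set to 0, at -0.74, and with tie class indices in place of values Slc1a2 (-0.63) and Acsl6 (-0.86) were both within 2-fold. Slc1a3 (-0.20), Sox9 (-0.38), Aldh1l1 (-0.44) and Gja1 (-0.83) were within 2-fold, and the median of the 8 members was -0.63, where that of all genes is 0 by construction.

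Other genes of astrocyte function were split in the same comparison. The counts of each list stand beside the 12.1% of all genes that were 2-fold higher and the 14.6% that were lower. Of 14 compared genes of gap junctions, ion and water balance, 2 were 2-fold higher and 1 lower. The higher pair was Kcnj10, the inward rectifier that buffers potassium, at 109 ppm against 36.7 ppm (1.88), and Gjb6, another astrocyte connexin gene, at 25.2 ppm against 10.6 ppm (1.50). The lower gene was Slc39a12, a zinc transporter gene (-1.22), which was within 2-fold with the lowest class at 0 (-0.94) and with tie class indices (-0.95). Among 10 genes of transmitter uptake and the glutamine cycle, Slc38a3, which exports glutamine, was higher (1.79) and Grm3, a glutamate receptor of astrocytes, was lower (-1.62). Hepacam, whose product binds that of Mlc1 in the membrane, did not share its difference, at 53.7 ppm in VitaminA and 49.4 ppm in ATRA. Of 8 gliogenic transcription factor genes, Stat3 was higher, at 676 ppm against 30.5 ppm (4.76), and Nfib (-1.46) and Nfix (-1.23) were lower. With tie class indices Nfib (-0.92), Nfix (-0.73) and Grm3 (-0.97) were within 2-fold, and Nfix also with the lowest class at 0 (-0.93). Among 8 reactive astrocyte genes only Osmr, the oncostatin M receptor gene, passed 2-fold, at 846 ppm against 15.1 ppm (6.04). Of 8 lipid genes, 2 were higher, among them Mfge8, a secreted phagocytosis factor gene (1.19), and 2 lower, among them Scd2, a fatty acid desaturase gene (-3.12).

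BMS753, given at the same dose as ATRA, had 3 members 2-fold lower than VitaminA and none 2-fold higher. Slc1a2 at -1.07 (-1.35 to -0.70), Aqp4 at -1.89 (-2.68 to -0.61) and Acsl6 at -1.25 (-1.58 to -0.54) were the lower ones, and the other 5 of the 8 compared were within 2-fold. The shares over all genes were 9.06% higher and 14.8% lower. Slc1a3 had the highest ratio of the panel, 0.71 (0.48 to 1.27), or 1.01 before centring. Without centring, the ratio of Slc1a2 was -0.76 and that of Acsl6 -0.94, and setting the lowest class to 0 gave -0.77 and -0.95, so that those calls depend on the scaling, while that of Aqp4 (-1.58 and -1.63) did not. Mlc1 was at 0.66, with quadrant pairs from -0.38 to 1.70.

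Of the genes of transmitter uptake and the glutamine cycle, Slc38a3 (-1.20) and Grm3 (-1.13) were 2-fold lower with BMS753 than in VitaminA. With the lowest class at 0, none of that list was 2-fold lower and 2 were 2-fold higher. Over all genes of this pair of sections, 9.06% were 2-fold higher and 14.8% lower. Slc6a11, a transporter gene of astrocytes for GABA, was at 167 ppm against 69.8 ppm, a ratio of 0.94 and so within 2-fold. Of 17 other astrocyte markers compared, Slco1c1, a thyroid hormone carrier gene (1.61), and Bcan, a matrix proteoglycan gene (1.38), were 2-fold higher, and 5 were 2-fold lower, including Lrig1, a membrane regulator of growth factor receptors (-3.72), and Htra1, a secreted protease gene (-1.74). Among 14 genes of junctions, ions and water, only Slc39a12 passed 2-fold (-1.63). Nfib (-1.62) and Lhx2 (-1.35) were the 2 of 8 gliogenic factors that did.

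With BMS961 and BMS641, given at a dose lower than that of ATRA or BMS753, some members were higher than in VitaminA and others lower. Sox9 and Aldh1l1 were 2-fold higher than in VitaminA, at 1.23 (0.43 to 1.60) and 1.03 (0.54 to 1.54), and Slc1a2 and Aqp4 2-fold lower, at -1.54 (-2.15 to -0.93) and -1.21 (-2.19 to -0.16). Of the 7 members compared, 3 were within 2-fold: Acsl6 (-0.68), Slc1a3 (-0.25) and Gja1 (-0.10). Among all genes 13.6% were 2-fold higher and 14.3% lower. Mlc1 was below 5 ppm in both sections and was not compared. The call of Aqp4 ended with the lowest class at 0 (-0.94), and Sox9 and Aldh1l1 were 2-fold higher in that setting (1.47 and 1.31) but not without centring (0.97 and 0.77).

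Of 17 other astrocyte markers compared in that pair, 3 were 2-fold higher and 4 lower. Ptprz1, a receptor phosphatase gene of radial glia and glial precursors, was at 215 ppm against 23.3 ppm (3.41), and Bcan at 39.4 ppm against 11.7 ppm (1.93). Of 9 gliogenic factors compared, 3 were 2-fold higher and none lower, against the 13.6% and 14.3% of all genes. They included Stat3 (2.72) and Id3, a target of bone morphogenetic protein signalling (2.72), which was detected in 25.2% of BMS961+BMS641 spots and at most 1.63% elsewhere. Fabp7, a fatty acid binding protein gene of radial glia, was at 7.26 ppm against 0.96 ppm. Of 9 reactive astrocyte genes, Steap4, a metalloreductase gene (1.82), and Cd44, a hyaluronan receptor gene (1.24), were among the 3 that were 2-fold higher. Cp, the ceruloplasmin gene, was lower (-1.04). With the lowest class at 0, 3 of these genes were 2-fold higher and none was lower. Scd2 (-3.02) and Lrig1 (-4.19) were lower here as in the other ligand sections. Grm5, a glutamate receptor gene of neurons and young astrocytes, was at 897 ppm against 152 ppm (2.80).

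**Figure D3:**
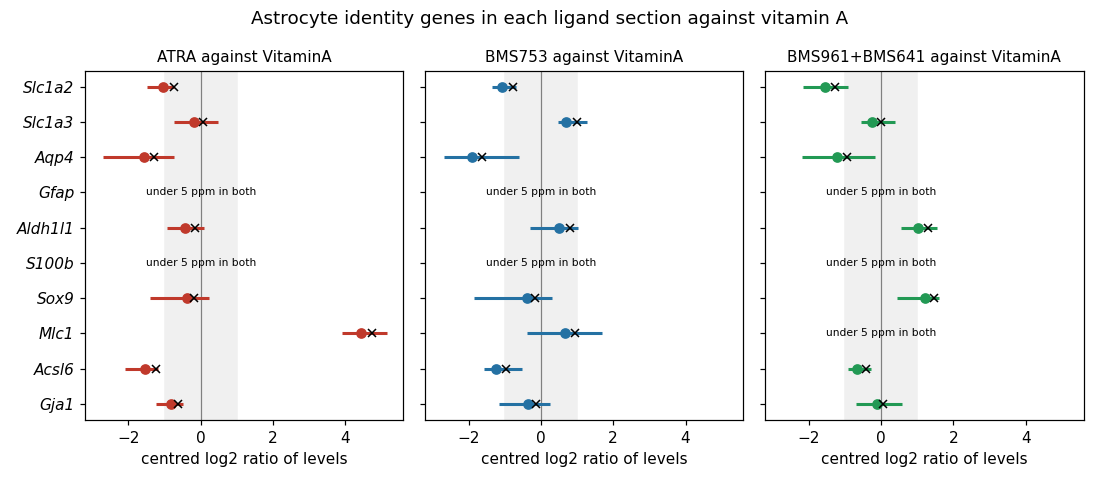
Centred log2 ratio of the level of each gene in ATRA, BMS753 and BMS961+BMS641 over VitaminA (dots), with the range over 16 pairs of quadrants (lines), the ratio with the lowest class set to 0 (crosses) and the zone within 2-fold (grey). Mlc1 in ATRA, at 4.43, is the only member past 2-fold upward in that section. The dots of Slc1a2 and Aqp4 lie at or below -1 in all 3 panels, though not all of their crosses do.

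Between the ligand sections, Mlc1, Sox9 and Aldh1l1 passed 2-fold in at least 1 pair. BMS753 against ATRA, both at 1 µM, left Mlc1 as the only one of 7 members compared that was 2-fold lower (-3.85, with -4.68 to -3.08 over quadrant pairs) and none was higher, where all genes had 14.6% lower and 6.77% higher. Aldh1l1 (0.87) and Slc1a3 (0.83) came nearest to 2-fold upward. In the same pair Slc38a3 (-3.06), Gjb6 (-2.19), Kcnj10 (-1.63), Stat3 (-5.47) and Osmr (-5.35) were lower with BMS753, and Slco1c1 (2.08) was higher.

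The remaining pairs set unequal doses beside each other, so their values describe the sections and not the potency of the ligands. In BMS961+BMS641 against ATRA, Sox9 (1.64) and Aldh1l1 (1.50) were 2-fold higher and Mlc1 (-4.65) lower among 7 members compared, where all genes had 14.9% higher and 12.3% lower. In BMS961+BMS641 against BMS753, Sox9 (1.70, with 0.57 to 3.06 over quadrant pairs) was 2-fold higher and no member was lower, where all genes had 15.7% higher and 6.41% lower. Slc1a3 (-0.88) and Mlc1 (-0.83) were the lowest of the panel in that pair. The median ratio removed was 0.71 for BMS753 against ATRA, 0.04 for BMS961+BMS641 against ATRA and -0.64 for BMS961+BMS641 against BMS753. Without centring, Slc1a3 had ratios of 1.54 in the first and -1.52 in the last of these pairs.

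The patterns over all 4 sections were shared with many genes. Slc1a2 and Aqp4 were 2-fold lower than VitaminA in every ligand section, as were 1107 of the 14207 genes compared in all 3 (7.79%). With the lowest class at 0, Slc1a2 in ATRA (-0.74) and BMS753 (-0.77) and Aqp4 in BMS961+BMS641 (-0.94) were within 2-fold of VitaminA. Sox9 was 2-fold higher in BMS961+BMS641 than in each other section, as were 1211 of 13161 genes (9.20%). Mlc1 was 2-fold higher in ATRA than in each other section, as were 1094 of 12930 genes (8.46%), and 146 genes (1.13%) stood at least as far above the other sections as Mlc1 did. A detection in at least 50% of ATRA spots with at most 10% in every other section was found for 39 genes. Mlc1 missed that limit by its 10.1% in VitaminA and 11.3% in BMS753, and no member met it in any section. The genes beside Mlc1 on the chromosome did not share its pattern. Ttll8 was at 25.7 ppm in VitaminA and 7.03 ppm in ATRA. Mov10l1 was detected in 31.3% of VitaminA and 16.7% of ATRA spots, Panx2 in 46.4% and 27.8%, and Pim3 in 6.88% and 1.69%.

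Among relatives of the members in their gene families, Slc1a1, Aqp9 and Aldh1a2 were highest in VitaminA, as Slc1a2, Aqp4 and Acsl6 were, and Sox10 was highest in ATRA. Slc1a1, the glutamate transporter gene of neurons, was at 319 ppm and in 93.3% of spots in VitaminA, and at 36.5 ppm, 87.8 ppm and 45.5 ppm in ATRA, BMS753 and BMS961+BMS641. Aqp9, an aquaglyceroporin gene best known from liver, was at 432 ppm in VitaminA and between 19.9 and 48.6 ppm elsewhere. Aldh1a2, a relative of Aldh1l1 whose product makes retinoic acid, was at 296 ppm in VitaminA and between 16.2 and 41.1 ppm elsewhere, whereas Aldh1l1 was higher in both BMS sections than in VitaminA. Sox10, the relative of Sox9 in oligodendrocyte precursors, was at 24.1 ppm in ATRA, 10.2 ppm in VitaminA, 1.84 ppm in BMS753 and 0.96 ppm in BMS961+BMS641. Of 35 relatives, 23 could be compared between ATRA and VitaminA, of which 3 were 2-fold higher and 5 lower, beside 12.1% and 14.6% of all genes. With BMS753 the counts were 1 and 7 of 24, beside 9.06% and 14.8%, and with BMS961+BMS641 none and 9 of 24, beside 13.6% and 14.3%.

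Markers of other cell types were present in every section. Rbfox3, a neuronal marker, was detected in between 87.5% and 96.6% of spots, and the 15 neuronal genes summed to 1281 ppm in VitaminA, 1120.0 ppm in ATRA, 1499 ppm in BMS753 and 1650.1 ppm in BMS961+BMS641. Stmn2 alone made 533 ppm of the BMS961+BMS641 sum, against 14.3 ppm in VitaminA. By centred ratio, 11 of the 15 neuronal genes were lower in BMS961+BMS641 than in VitaminA and 4 were higher (median -0.45). The 14 oligodendrocyte genes summed to between 283 and 509 ppm. The 12 ependyma and choroid plexus genes, of which 10 to 12 were listed, summed to between 61.7 and 79.7 ppm, with Ttr, the defining choroid plexus gene, at 3.46 ppm or less where it was listed. Radial glia genes, with which the panel overlaps in function, summed to 254, 189, 304 and 203 ppm in VitaminA, ATRA, BMS753 and BMS961+BMS641. Microglial genes reached 166 ppm in BMS961+BMS641, of which Cx3cr1 made 102 ppm, detected in 66.3% of spots against 25.4% in VitaminA. Other genes of that list did not share this difference. Tmem119 was at 14.6 ppm in BMS961+BMS641 against 36.1 ppm in VitaminA, and Ptprc at 9.38 against 23.6 ppm. Of 6 microglial genes compared in that pair, 4 were higher and 2 lower by centred ratio (median 0.08). Epithelial genes summed to 1448 ppm in BMS961+BMS641, of which Epcam made 921 ppm and Cdh1 502 ppm, and to between 76.1 and 113 ppm elsewhere. Only 3 of the 8 epithelial genes could be compared between BMS961+BMS641 and VitaminA. Epcam and Cdh1 were 2-fold higher, and Krt8 was 2-fold lower, at 18.7 against 52.5 ppm. Over all genes of that pair, 13.6% were 2-fold higher and 14.3% lower. Mesenchymal genes summed to 348 ppm in VitaminA and 95.1 ppm in ATRA, and endothelial and mural genes to 1032 and 759 ppm. Flt1 alone made 761 and 449 ppm of the endothelial and mural sums. Of 8 endothelial and mural genes compared between ATRA and VitaminA, 6 were lower in ATRA by centred ratio, 3 of them 2-fold. The other 2, Pdgfrb (2.62) and Tek (2.31), were 2-fold higher in ATRA. Over all genes of that pair, 12.1% were 2-fold higher and 14.6% lower. Of 9 mesenchymal genes compared, 8 were lower in ATRA and 1 was higher. No listed gene of these lists was at 0 in a section. The part of these cell types in the differences of the panel was not tested.

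Depth within a section moved with detection, so the members were also taken from spots with 3000 to 5000 detected genes, a range that holds 284 VitaminA, 270 ATRA, 174 BMS753 and 140 BMS961+BMS641 spots. In these, Mlc1 was detected in 70.4% of ATRA spots and in 7.04%, 9.20% and 4.29% in VitaminA, BMS753 and BMS961+BMS641. Sox9 was in 32.1% of BMS961+BMS641 spots and in 14.8%, 10.4% and 14.4% in VitaminA, ATRA and BMS753, and Aldh1l1 in 40.7% against 19.4%, 13.3% and 31.0%. Slc1a2 was in 66.2% of VitaminA spots and in 47.8%, 42.5% and 37.9% in ATRA, BMS753 and BMS961+BMS641. Aqp4 was in 23.9% against 8.15%, 10.3% and 10.7%. The section with the highest detection of each of these 5 genes was thus the same as over all spots.

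Within a section no member stood out from other genes as patchy once the factor of each spot was divided out. Moran's I, which is near 0 for a scattered gene and near 1 for a patchy one, was computed on 8 grid neighbours after the factor of each spot was divided out. It was 0.08 or less for every member in every section, below the 95th percentile of genes detected in at least 10% of spots (between 0.12 and 0.18 by section). Mlc1 in ATRA, the most widely detected member there, had 0.07. On detection in place of values, Moran's I was higher, at 0.11 for Mlc1 in ATRA and at most 0.13 (Acsl6 in BMS753). On the deposited values it was at most 0.14 (S100b in BMS961+BMS641). No percentile over all genes is given for these settings. The spots of the array are addressed by a pair of barcodes, and the number of detected genes followed array rows and columns. Row and column together carried 90.4% of its variance over spots in ATRA, 89.0% in BMS961+BMS641, 83.4% in BMS753 and 75.9% in VitaminA (adjusted for the number of rows and columns). For the tie class of Mlc1 in ATRA that share was 41.1%, and the map of Mlc1 shows lines along rows and columns. It was 43.4% for Acsl6, 37.4% for Aldh1l1 and 22.7% for Sox9 in BMS961+BMS641, and 25.4% for Slc1a2 in VitaminA. The place of a high spot within a section therefore cannot be read apart from the depth of its row and column. Interior spots, with all neighbours on the tissue, and edge spots differed in no single direction. Mlc1 in ATRA was detected in 67.6% of interior and 58.1% of edge spots and Slc1a2 in VitaminA in 77.0% and 66.4%, while in BMS961+BMS641 Aldh1l1 was in 43.6% and 50.3% and Slc1a2 in 42.0% and 47.5%. Gfap in ATRA was in 2.78% and 7.07%. The median number of detected genes was 4950 in the interior and 4251 at the edge of VitaminA, and 4402 and 4485 in BMS961+BMS641.

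**Figure D4:**
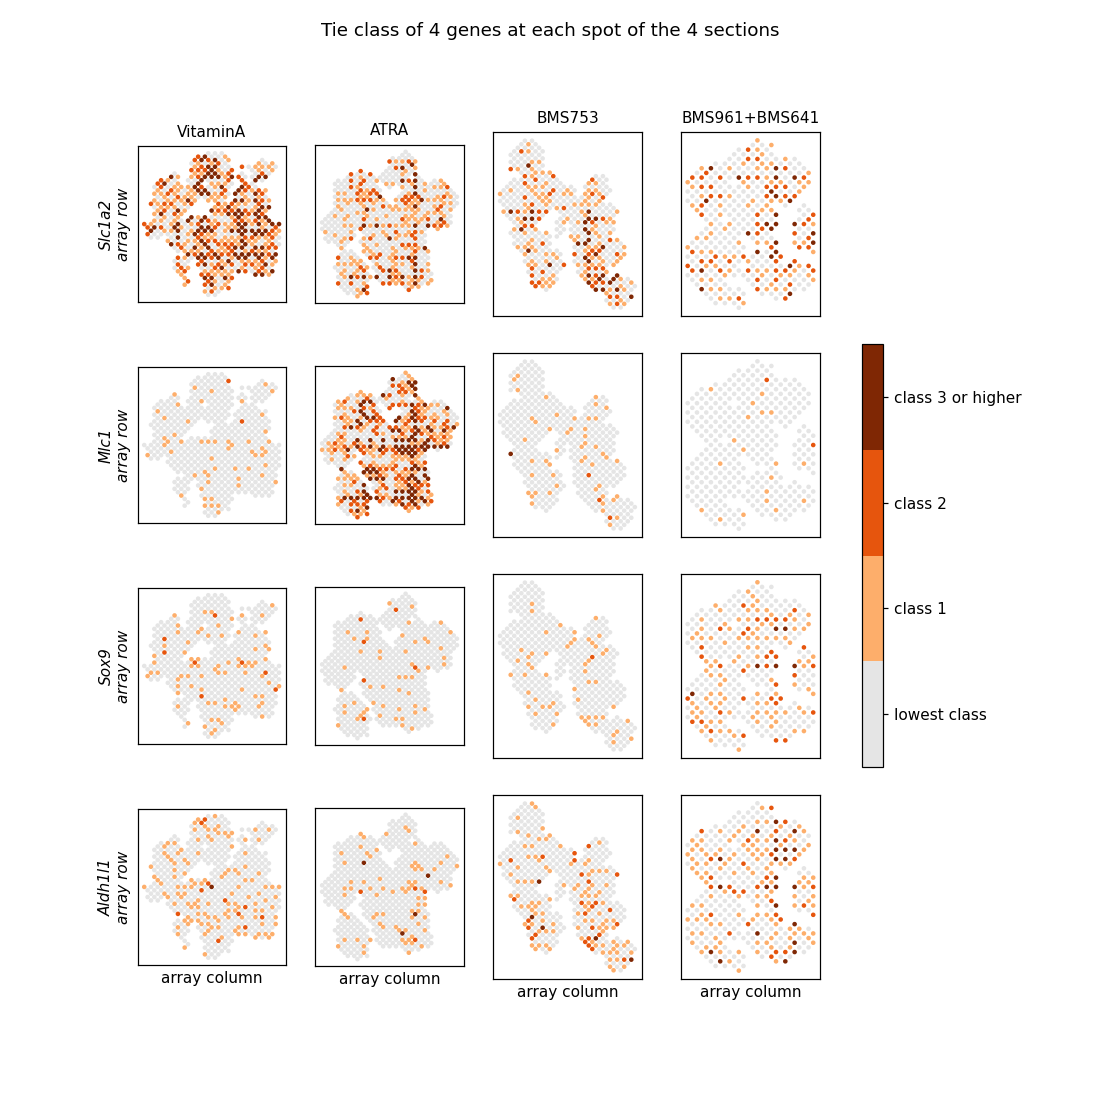
Tie class of Slc1a2, Mlc1, Sox9 and Aldh1l1 at each spot, by array row and column, in the 4 sections. Grey spots are in the lowest class and darker colours are higher classes. Mlc1 fills 64.4% of ATRA spots and Sox9 is most frequent in BMS961+BMS641, and darker spots in ATRA line up along rows and columns.

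Within groups of spots of like depth, the median pair of members was seen together 1.01 to 1.09 times as often as its frequencies give. The median spot held 3 of the 10 genes in VitaminA and BMS961+BMS641 and 2 in ATRA and BMS753, and no spot held more than 8. None of the 10 was detected in 3.99% of VitaminA spots, 11.8% of ATRA, 15.4% of BMS753 and 11.8% of BMS961+BMS641 spots. Over pairs of members detected in at least 10% of spots, the Spearman correlation over spots had a median between 0.01 and 0.02 by section, and over all pairs of genes so detected between 0.004 and 0.02. With the lowest class set to 0, the medians of the members were 0.11 in BMS961+BMS641, 0.06 in BMS753, 0.05 in ATRA and 0.02 in VitaminA. The median over all pairs of genes is not given for that setting. Correlations of other genes with the members rose there too. In the search described below, the median gene's mean correlation with a member lay between 0.04 and 0.07, against -0.04 to 0.04 in the main setting. Spots of a section share a library and their rows and columns, so these are descriptions. Pairs were detected in the same spot 1.07 to 1.31 times as often as the product of their frequencies, as medians by section, and 1.01 to 1.09 times within 3 groups of spots by depth. Within these groups, 21 of 21 pairs exceeded the product in BMS961+BMS641, by up to 1.50 times. The counts were 20 of 28 in BMS753, 15 of 28 in VitaminA and 6 of 10 in ATRA. No value over all pairs of genes is given for this measure. The highest single correlation, 0.42 for Sox9 with Gja1 in BMS753, was 0.06 when the lowest class was set to 0.

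**Figure D5:**
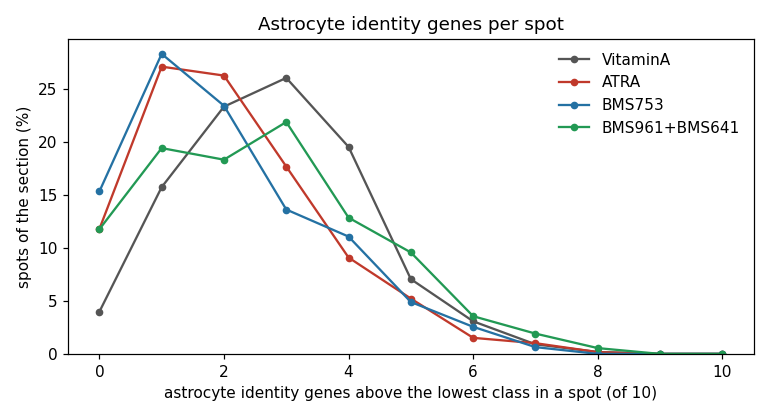
Percent of spots of each section (vertical axis) by the number of the 10 astrocyte identity genes above the lowest class in the spot (horizontal axis). VitaminA peaks at 3 genes and BMS753 at 1, and 3.99% of VitaminA spots held none.

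A search for genes with a like distribution over spots found few. For each member detected in at least 10% of spots of 2 or more sections, the mean Spearman correlation over those sections was ranked among all genes so detected. Gfap and S100b met that limit in no section. The gene most like Mlc1 was Osmr, with a mean of 0.19 over VitaminA, ATRA and BMS753 (0.13 to 0.28) among 8356 genes whose median was 0.02, followed by Pitpnc1 at 0.15 and Tecr at 0.13. Osmr stayed first with the lowest class at 0. Slc1a2 was most like Meis2 (0.15 over 4 sections) and Acsl6 most like Ppfia2 (0.16 over 4 sections), and the highest means of Slc1a3 (0.16), Aqp4 (0.15) and Aldh1l1 (0.15) were of that size. Higher means for Sox9 (0.28, with Ccdc112) and Gja1 (0.38, with Tmem156) were 0.13 and 0.11 with the lowest class at 0. Correlations of this size in sparse values are no finding.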

How the data were processed

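Spatial transcriptomes of 4 brain organoid sections were analysed, 1 per treatment, grouped by the treatment in the labels. Sections were laid on printed poly-T arrays with a pair of barcodes per position, per the labels' protocols. Per the submitters' processing notes, reads were placed on build mm9. Neither the aligner nor the way of counting is given in the sources used here. The authors deposited a signal for each gene at each spot, quantile normalised within a section, per the file names and checked on the values. It holds no counts, so the depth behind a value and its precision are unknown.

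From these signals the level was computed as ppm of a section, detection as the share of spots with the gene above the lowest class, and centred log2 ratios for all 6 pairs of sections, with a pseudocount of 1 ppm and a filter of 5 ppm in either section. Shares of spots have 95% Wilson intervals. All members were named. From 16 lists, the 2 genes with the highest and the 2 with the lowest ratio per pair could be named, with 3 genes most like each member. Other list genes (Hepacam, Apoe, Vim, Glul, Slc1a1, Aqp9, Aldh1a2, Sox10 and Cx3cr1 among them) and the chromosome neighbours were named after their values were seen. The members and lists were chosen with earlier results of these data known. Alternatives changed the centring, the lowest class, the filter, the pseudocount, the weight of spots, the use of a mean over spots, the exclusion of edge spots and that of the top 10 genes. The tie class index, the depth window and the likeness with the lowest class at 0 were chosen after seeing the data, as was the share of variance carried by rows and columns. The steps were tested on simulated data. RefSeq gave the genomic spans, for 22097 of 22218 symbols, and the upstream sequences, in build GRCm38.p6. Its coordinates were used for the spans, for these sequences and to find the genes beside each member on the chromosome. The software was scipy 1.17.1, numpy 2.4.6 and pandas 2.3.3 under Python 3.11.15, with matplotlib 3.10.9 for figures. A gene of these lists is not reported here.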

Additional observations from a re-analysis of the deposited data

How the results depend on the processing

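No called ratio turned its direction under any alternative run. Of the 16 calls, 12 stayed past 2-fold without centring, 12 with the lowest class at 0, 12 with tie class indices and 13 with a pseudocount of 5 ppm. With a pseudocount of 0.1 ppm, and without the top 10 genes, all 16 stayed. The median over spots gave a value for 8 of them and the 20 ppm filter for 11, all of which stayed. The 3 calls of Mlc1 and the call of Slc1a2 in BMS961+BMS641 against VitaminA stayed past 2-fold in 11 of 11 settings, and Slc1a2 in BMS753 against VitaminA in 5 of 11.

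The number of members past 2-fold was 4 for ATRA against VitaminA and 2 with tie class indices. For BMS753 against VitaminA it was 3, and 1 with the lowest class at 0 or with tie class indices. For BMS961+BMS641 against VitaminA it was 4, and 2 without centring, with a pseudocount of 5 ppm, with the 20 ppm filter and with the median over spots, but 5 with no filter and 5 with tie class indices, Gfap among the latter. For BMS753 against ATRA it was 1, but 4 without centring and 2 with equal weight of spots or tie class indices. For BMS961+BMS641 against BMS753 it was 1, but 4 without centring, 2 with the lowest class at 0 or a pseudocount of 0.1 ppm, and 3 with tie class indices, Gfap among them. Counts over all genes moved as well. For BMS753 against VitaminA, 1421 were 2-fold higher and 2326 lower of 15676, and 1580 and 2200 of 14673 with the lowest class at 0. For BMS961+BMS641 against BMS753 the counts were 2345 and 960 of 14973, and 2376 and 1784 of 13872 in that setting. Shares over all genes are not given for the other settings, so no changed count is read as particular to the panel. The cause of these moves was not tested. When each quadrant was left out in turn, 124 of 128 values stayed past 2-fold. Slc1a2 in ATRA and Aldh1l1 in BMS961+BMS641, each against VitaminA, stayed in 6 of 8, and the count for BMS753 against ATRA lay between 1 and 2. No paired analysis was possible because each treatment has 1 section.

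With 1 section per treatment, differences between treatments cannot be told apart from differences between organoids, sections or libraries. The files hold no counts, so no limit of detection can be given for Gfap and S100b, and ratios of genes in few spots, such as Aqp4 in ATRA, rest on 47 spots of 593.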
